A study of Homo sapiens with 2 samples.

Results

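The miR-99/100 and miR-125 families were measured with and without luteolin in 22Rv1, a human prostate cancer cell line. The members were taken by name from the array tables: hsa-miR-99a-5p, hsa-miR-99b-5p, hsa-miR-99b-3p, hsa-miR-100-5p, hsa-miR-125a-5p, hsa-miR-125a-3p and hsa-miR-125b-5p, which are 7 of the 2565 human miRNA probes. The names were chosen by family and cluster, with no cut-off on a measured value, but earlier results of these data were known. Luteolin is a plant flavone. Cells grown in RPMI1640 medium were left untreated (control) or given luteolin at 25 µM, and total RNA of both was taken at 48 h. Each was labelled with Cy5 and hybridized to 1 single-colour 3D-Gene array. Since each condition has 1 array, no test could be made, and every difference below describes this pair of arrays.

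A miRNA guides repression of mRNAs mainly through its seed, bases 2 to 8 from its 5′ end, so arms with the same seed share many predicted targets. The miR-125 family is the vertebrate counterpart of lin-4, a timing regulator first found in Caenorhabditis elegans, and LIN28 is among its known targets. The miR-99/100 family is known to repress MTOR and has been studied as a brake on growth in prostate cancer cells. Both families lie beside let-7 genes in conserved clusters, where the hairpins of a shared primary transcript are cut out and matured separately.

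The mature sequences below, from RefSeq annotation on GRCh38.p14, are shown because the seed groups the members and because close relatives differ by few bases. All 7 members matched by name. Each is written 5′ to 3′ with the seed in capitals. The first group shares the miR-99/100 seed, the second shares the miR-125 seed, and the last pair are the opposite arms of miR-99b and miR-125a.
hsa-miR-99a-5p: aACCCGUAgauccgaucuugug
hsa-miR-100-5p: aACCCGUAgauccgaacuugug
hsa-miR-99b-5p: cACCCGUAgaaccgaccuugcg
hsa-miR-125a-5p: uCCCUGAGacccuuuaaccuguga
hsa-miR-125b-5p: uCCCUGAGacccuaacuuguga
hsa-miR-99b-3p: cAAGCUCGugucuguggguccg
hsa-miR-125a-3p: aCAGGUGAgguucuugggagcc

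Counted from the 5′ end, miR-99a-5p and miR-100-5p differ at 1 position, U16A, written with the miR-99a-5p base first. MiR-99a-5p and miR-99b-5p differ at 4 positions, A1C, U11A, U16C and U21C. MiR-125a-5p, at 24 bases, and miR-125b-5p, at 22, share their first 13 bases and are 3 single-base edits apart. How well the probes tell such relatives apart was not tested.

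The members come from 3 clusters. On chromosome 21, MIR99A (mature arm at chr21:16539101-16539122, plus strand) is followed by the let-7c hairpin and by MIR125B2 (chr21:16590253-16590274), all inside the span of the lncRNA gene MIR99AHG. On chromosome 11, on the minus strand and inside the span of MIR100HG, MIR100 (chr11:122152275-122152296) is followed by let-7a-2 and by MIR125B1 (chr11:122099809-122099830). On chromosome 19, MIR99B (chr19:51692618-51692639, plus strand), let-7e and MIR125A (chr19:51693268-51693291) lie inside the span of SPACA6. The last cluster is compact: from the first base of miR-99b-5p to that of miR-125a-5p it covers 650 bases, against 51152 and 52466 bases for the same stretch on chromosomes 21 and 11. MiR-125b-5p has 2 identical loci and let-7a-5p has 3, so their signals cannot be assigned to 1 cluster.

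The arrays were dim. The detection limit, the mean of the trimmed blank spots plus 2 SD of the same spots, lay at 84.0 scanner units for the control and 67.3 for luteolin. On both arrays, 701 miRNAs exceeded it. A stricter limit, the highest Negative Control spot, lay at 93.7 and 69.4 units and was passed on both arrays by 310 miRNAs. Of the 7 members, 6 passed the stricter limit on both arrays. Of 7 epithelial miRNAs (miR-200 family members, miR-205-5p and miR-375), 4 passed it on both, with miR-205-5p and miR-429 below the blank limit on both. Of 11 markers of muscle and stroma, blood and endothelium, nerve and liver, only miR-451a did, at 94.1 and 70.9 units, close to the limit, and 8 were below the blank limit on both arrays. Repeated spots of the control probe Negative Control 1 lay 7.17 units above the blanks in the control and 2.03 after luteolin.

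**Figure D1:**
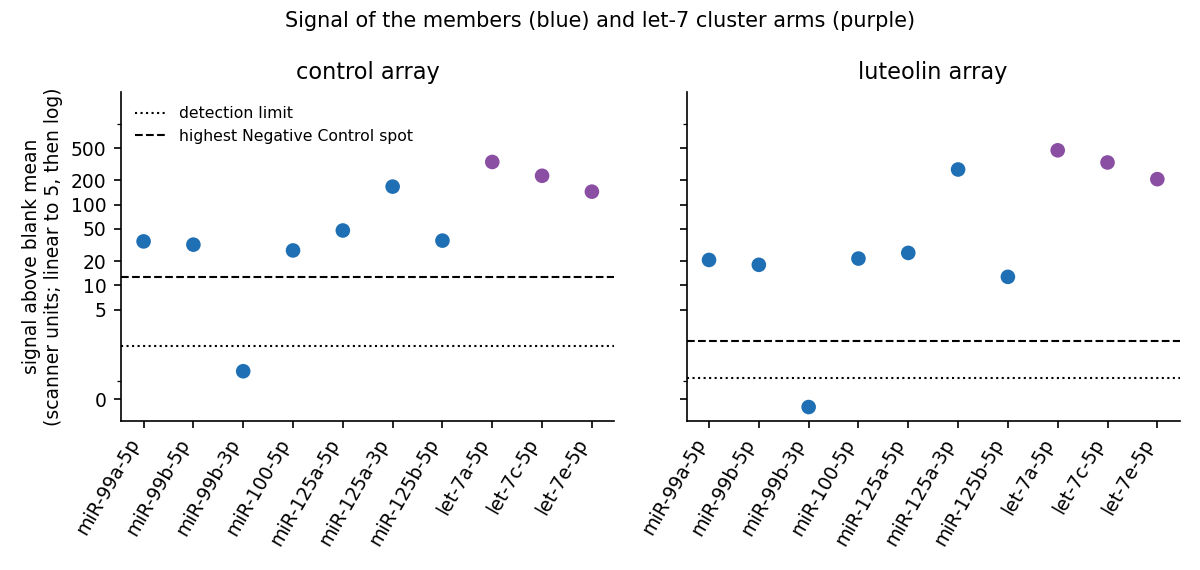
Signal of each member (blue) and of the let-7a, let-7c and let-7e 5p arms (purple) above the blank mean on the control array (left) and the luteolin array (right), in scanner units on an axis that is linear to 5 and logarithmic above; the dotted line is the detection limit and the dashed line the highest Negative Control spot. All members but miR-99b-3p lie above the dashed line on both arrays; heights of different probes are not comparable with each other.

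Levels below are on the authors' deposited scale, which is blank-subtracted intensity scaled to a median of 25, with a further factor of 0.803 on the luteolin array that puts the median log2 ratio of the 701 miRNAs at 0. The ± values are 1 standard error, taken from how far repeated spots scattered on each array. They cover neither culture nor array variation. For the members they reach 0.17, and 0.21 when the spread of the Negative Control 1 spots is used in place of that of the blanks.

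The miR-99/100 seed family stood close to the array's median. MiR-99a-5p (MIMAT0000097) had a level of 106 in the control and 95.6 after luteolin, a log2 ratio of -0.15 ± 0.16. MiR-99b-5p (MIMAT0000689) went from 97.0 to 83.2, a log2 ratio of -0.22 ± 0.16. MiR-100-5p (MIMAT0000098), the near copy of miR-99a-5p, went from 82.2 to 99.5, at 0.28 ± 0.16. The 95% interval of each of these log2 ratios included 0. Between relatives, the log2 ratio of miR-99a-5p minus that of miR-100-5p was -0.43 ± 0.23, with an interval from -0.88 to 0.02. That of miR-99b-5p minus miR-100-5p was -0.50 ± 0.23, with an interval from -0.95 to -0.04, and these differences were -0.14 and -0.13 with an offset of 50. With the spread of the Negative Control 1 spots, the errors of miR-99b-5p and miR-100-5p were 0.19 and 0.21, which would widen the last interval. MiR-99a-5p and miR-99b-5p differed by 0.07 ± 0.23, with an interval from -0.37 to 0.51, so these arrays leave room for a difference of either sign. With the mean of the Negative Control 1 spots subtracted, an alternative chosen after seeing the data, miR-99a-5p stood at 0.03, miR-99b-5p at -0.03 and miR-100-5p at 0.58. On that scale the median of the 310 miRNAs was 0.30, so miR-99a-5p and miR-99b-5p lay below it and miR-100-5p above it.

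The 5p arms of the miR-125 seed family were lower after luteolin on the authors' scale. MiR-125b-5p (MIMAT0000423), an androgen-responsive miRNA reported to act on the pro-apoptotic gene BAK1 in prostate cancer, had raw signals of 117 units (control) and 78.9 units (luteolin). Its level went from 109 to 59.0, a log2 ratio of -0.88 ± 0.17 with an interval from -1.21 to -0.56, and it was the lowest of the members. Only 5 of the 310 miRNAs that passed the stricter limit had a lower ratio. MiR-125a-5p (MIMAT0000443) went from 145.3 to 116.9, at -0.31 ± 0.15, and its interval, from -0.61 to -0.02, stopped just short of 0. That interval rests on the spread of the blanks. The error was 0.17 with the spread of the Negative Control 1 spots, so the side of 0 is not secure. Without the further factor on the luteolin array its log2 ratio was 0.0038. The log2 ratio of miR-125a-5p minus that of miR-125b-5p was 0.57 ± 0.22, with an interval from 0.13 to 1.01. The pair therefore differed by more than the spot error on the authors' scale, while the difference was 0.18 with an offset of 16 and 0.07 with an offset of 50.

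MiR-4319, another entry with the miR-125 seed but otherwise a different sequence, stood on the other side of 0 on the authors' scale. Its level went from 40.3 to 70.8, a log2 ratio of 0.81 ± 0.22, or ± 0.33 with the spread of the Negative Control 1 spots. It stood at 0.20 with no scaling between arrays, 0.29 with an offset of 16 and 0.15 with an offset of 50. With the mean of the Negative Control 1 spots subtracted it stood at 1.72. Its control signal, 94.3 units, lay just above the highest Negative Control spot. It is shown because it is the only other miRNA in the RefSeq table with this seed.
hsa-miR-4319: uCCCUGAGcaaagccac

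The opposite arm of miR-125a was the one member past 2-fold on the authors' scale. MiR-125a-3p (MIMAT0004602), whose seed is shared with no other entry of the table, had raw signals of 249 and 340 units. Its level went from 509 to 1266, which is 2.49-fold, or 1.32 ± 0.14 in log2, with an interval from 1.04 to 1.59. It was short of 2-fold with no scaling between arrays, at 0.71, with an offset of 16, at 0.48, and with an offset of 50, at 0.42. Of the 310 miRNAs that passed the stricter limit, at all signal levels, 281 had a lower ratio. It is set beside miRNAs of like control level further below. Both arms come from 1 hairpin of 86 bases (MIR125A, chr19:51693254-51693339, plus strand), printed here with the arms in capitals because they stood apart.
MIR125A: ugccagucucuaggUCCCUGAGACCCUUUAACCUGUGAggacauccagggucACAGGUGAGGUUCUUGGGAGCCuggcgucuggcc

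The log2 ratio of miR-125a-5p minus that of miR-125a-3p was -1.63 ± 0.20, with an interval from -2.03 to -1.23. A factor common to all spots of an array cancels in such a difference, so it is the same under every pure rescaling of the arrays. It was -1.57 with the mean of the Negative Control 1 spots subtracted, -0.89 with an offset of 16 and -0.67 with an offset of 50. Whether the arms' unequal signal over background plays a part was not tested.

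MiR-99b-3p, the opposite arm of miR-99b, was not detected on either array. Its raw signal was 82.5 units in the control and 65.7 after luteolin, below the blank limit on both, and no fold is given. MiR-99a-3p, which has the same seed, passed that limit on the control array only, at 84.2 units, and did not reach the Negative Control spots.

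Counted together, 1 of the 6 detected members was higher after luteolin by 2-fold or more, and 0 were lower by that much. Of all 701 miRNAs detected on both arrays, 13.4% were higher by 2-fold or more and 5.14% were lower. Among the 310 passing the stricter limit, the shares were 18.4% and 0.645%. The count for the members is thus near the background. Their median log2 ratio was -0.19, with 2 above and 4 below 0, beside medians of 0.00 over the 701 and 0.04 over the 310. For the 5 members that are 5p arms the median was -0.22, and 4 of the 5 lay below the median of the 310.

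**Figure D2:**
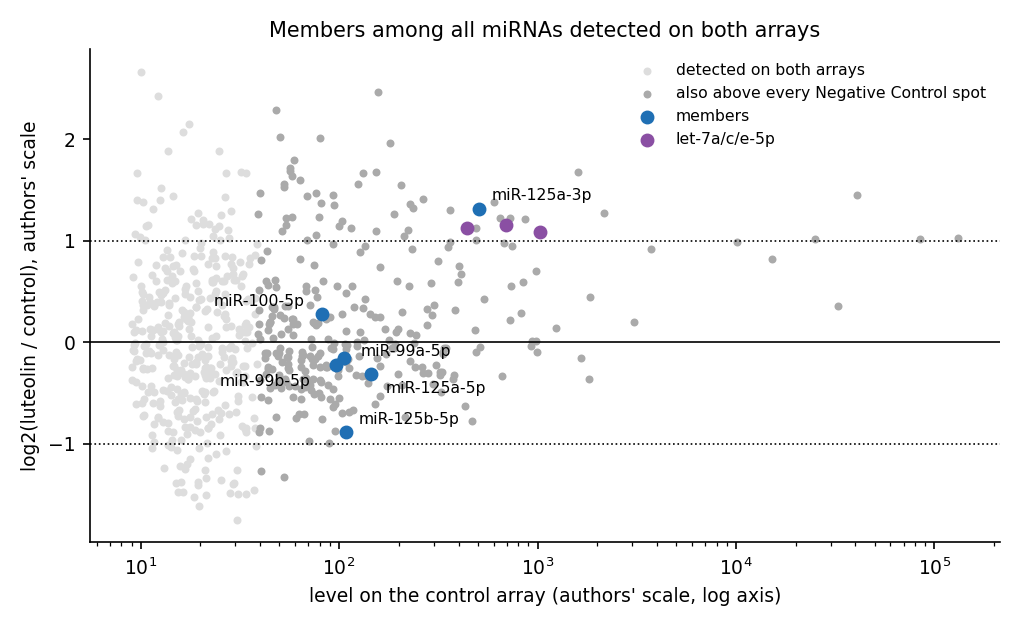
Log2 ratio of luteolin over control against the control level (logarithmic axis, authors' scale) for the 701 miRNAs detected on both arrays (light grey), those above every Negative Control spot (dark grey), the 6 detected members (blue) and the let-7a, let-7c and let-7e 5p arms (purple); dotted lines mark 2-fold. The 5 member 5p arms lie between -0.88 and 0.28, while miR-125a-3p, at 1.32, lies beside the let-7 arms.

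The let-7 neighbours in the same clusters stood apart from the member 5p arms. Let-7c-5p had a log2 ratio of 1.16 ± 0.14, let-7a-5p of 1.09 ± 0.14 and let-7e-5p of 1.13 ± 0.14. All 3 were above 0 under every scale tried, and above 2-fold under the scales with no offset other than the unscaled one. The 3 sequences are shown because they differ from each other by single bases. Let-7a-5p and let-7c-5p differ by A19G, and let-7a-5p and let-7e-5p by U9G. How well the probes tell these 3 apart was not tested.
hsa-let-7c-5p: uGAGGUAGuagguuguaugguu
hsa-let-7a-5p: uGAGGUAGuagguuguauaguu
hsa-let-7e-5p: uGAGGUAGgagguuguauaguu

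In all 6 comparisons of a member 5p arm with the let-7 arm of its cluster, the member had the lower log2 ratio and the 95% interval of the difference lay below 0. Each let-7 arm and miR-125b-5p enter more than 1 comparison, so these are not 6 separate observations. MiR-125b-5p and let-7a-5p also have loci outside the cluster in which they are compared. In the chromosome 19 cluster, miR-99b-5p minus let-7e-5p was -1.35 ± 0.21 and miR-125a-5p minus let-7e-5p was -1.44 ± 0.20, although less than 1 kilobase holds all 3 hairpins. In the chromosome 21 cluster, miR-99a-5p minus let-7c-5p was -1.31 ± 0.21. MiR-125b-5p minus let-7c-5p was -2.04 ± 0.22, a 4.12-fold gap between the ratios and the widest of the 6. In the chromosome 11 cluster the gap was narrower for miR-100-5p, at -0.82 ± 0.22 against let-7a-5p, and stood at -1.97 ± 0.22 for miR-125b-5p. These differences do not depend on the factor between the arrays. They were smaller on the scales that add an offset: from -0.84 to -0.51 with an offset of 50 and from -1.14 to -0.55 with an offset of 16. All 6 were below 0 on both.

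**Figure D3:**
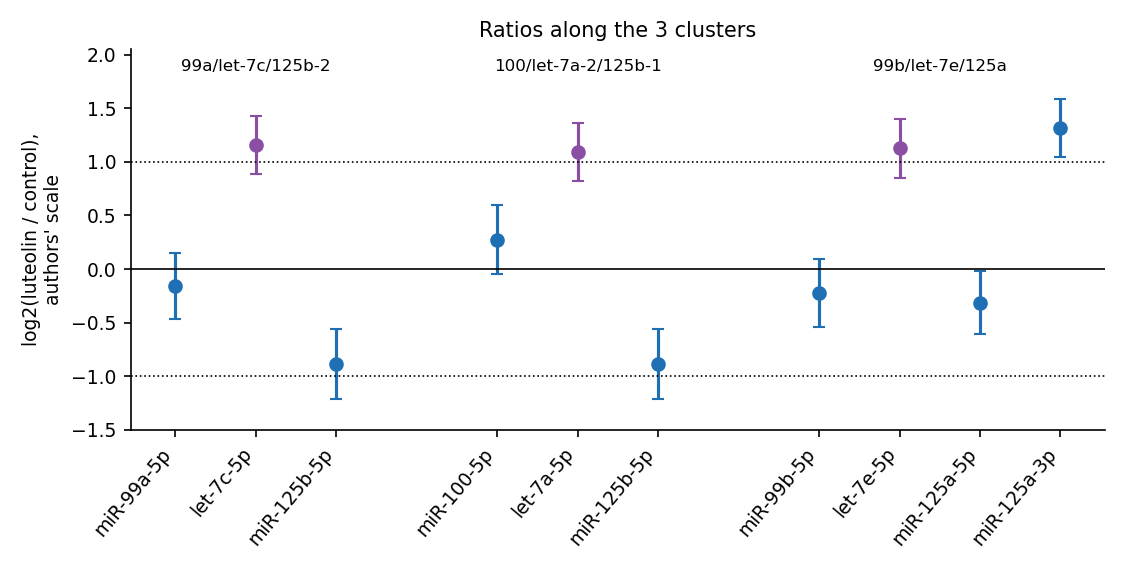
Log2 ratio of luteolin over control on the authors' scale for the member arms (blue) and the let-7 5p arms (purple) in genomic order along the 3 clusters, with 95% intervals from the spot error within arrays; miR-125b-5p has 2 loci and its single value is drawn at both, and dotted lines mark 2-fold. The let-7 arms stand at 1.09 to 1.16, and each 5p member beside them stands lower.

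The let-7 probes gave more signal than the member 5p probes, and on the authors' scale the ratios of other miRNAs differed between those signal ranges. Among 59 other miRNAs with a control level inside the range of the 5p members, the median log2 ratio was -0.03, with quartiles at -0.33 and 0.39, and 11.9% were higher by 2-fold or more. Among 23 other miRNAs inside the control range of the 3 let-7 arms, the median was 0.43, with quartiles at -0.01 and 1.00, and 26.1% were higher by 2-fold or more. MiR-125a-3p, with a control level of 509 in the same range, stood at 1.32, above that upper quartile and below the highest of the 23, at 1.38. Those 23 hold 3 further let-7 arms, of which 2 were among the 6 past 2-fold. On the offset scales the order of the 2 medians turned, to -0.11 for the 59 and -0.20 for the 23 with an offset of 50, and to -0.19 and -0.23 with an offset of 16. On the authors' scale, miR-99a-5p, miR-99b-5p and miR-125a-5p lay between the quartiles of the 59 miRNAs of like level, as did miR-100-5p. There miR-125b-5p lay below the lower quartile, and miR-125a-5p, at -0.31, was only just above it. With an offset, miR-125a-5p also lay below that quartile: -0.25 against -0.20 with an offset of 50, and -0.41 against -0.33 with an offset of 16. Let-7g-5p, let-7i-5p and miR-98-5p are named here after their values were seen. On the authors' scale let-7g-5p, with a control level of 131, had a log2 ratio of 1.67 ± 0.15, and let-7i-5p, with 81.4, had 1.37 ± 0.16. MiR-98-5p, with 54.0, had 1.22 ± 0.19. Let-7g-5p is itself among the 59 and past 2-fold, while let-7i-5p and miR-98-5p lie below the control range of the 59. The part of signal level in the cluster differences was not tested.

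Within the clusters, the 2 families could also be set against each other. MiR-99a-5p minus miR-125b-5p was 0.73 ± 0.23, with an interval from 0.28 to 1.18, and miR-100-5p minus miR-125b-5p was 1.16 ± 0.23, from 0.70 to 1.62. In the compact chromosome 19 cluster, miR-99b-5p minus miR-125a-5p was 0.09 ± 0.22, from -0.34 to 0.52. With an offset of 50, the differences of miR-99a-5p and miR-100-5p from miR-125b-5p were 0.19 and 0.33. On the authors' scale miR-125b-5p thus stood below both of its miR-99/100 neighbours by more than the spot error, while its relative miR-125a-5p was not separated from miR-99b-5p.

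The remaining arms of the clusters gave little signal. Of 11 other arms looked up, 4 were detected on both arrays: the 3 let-7 5p arms and let-7a-3p, which RefSeq places at the let-7a loci outside these clusters and which did not pass the Negative Control spots on the control array. MiR-99a-3p and miR-125b-1-3p passed the blank limit on the control array alone, at 84.2 and 84.1 units. The other 5 (miR-100-3p, miR-125b-2-3p, let-7c-3p, let-7a-2-3p and let-7e-3p) lay below it on both.

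The miR-10 family is the nearest relative of miR-99/100 outside these clusters and is encoded in the HOX gene clusters. MiR-10a-5p is 3 single-base edits from miR-100-5p and is shown because its seed differs from theirs.
hsa-miR-10a-5p: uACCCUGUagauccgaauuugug

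MiR-10a-5p lay inside the range of the Negative Control spots on the control array and above it on the luteolin array, with listed levels of 20.6 and 47.6. Its luteolin level was at least 1.23-fold higher than a control floor set at the brightest Negative Control spot, a bound that assumes the authors' scaling and allows for no spot error. MiR-10b-5p, at 25.7 and 33.2, was also above those spots on the luteolin array only, and no fold is given for it. The 3p arms of both were below the blank limit on both arrays.

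For each 5p member, the miRNAs nearest to it over the 2 log2 levels were looked up among the 700 others detected on both arrays. The nearest to miR-99a-5p was miR-1285-3p, at a distance of 0.03 log2 units, followed by miR-320c and miR-4506. The nearest to miR-99b-5p was miR-339-5p, at 0.04, followed by miR-642b-3p and miR-4463. For miR-100-5p it was miR-378a-3p, at 0.07, then miR-128-2-5p and miR-4687-3p. The nearest to miR-125a-5p was miR-4688, at 0.08, then miR-4449 and miR-8059. For miR-125b-5p it was miR-423-3p, at 0.14, with a log2 ratio of -0.69, then miR-138-2-3p and miR-612. With 2 arrays such nearness says only that 2 probes gave similar values on each.

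**Figure D4:**
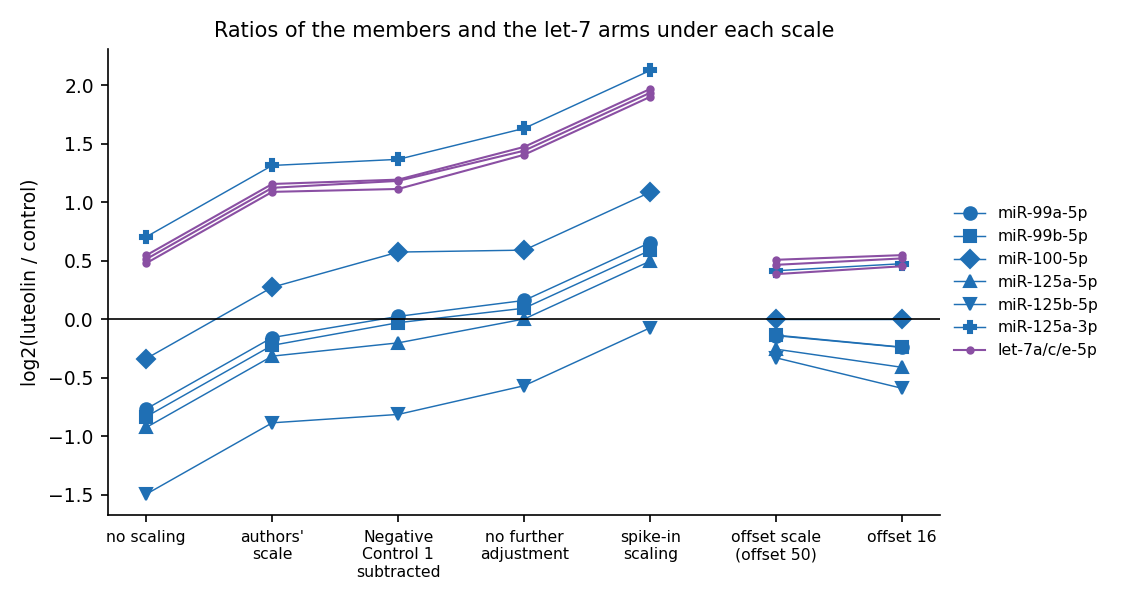
Log2 ratio of luteolin over control (vertical axis) of the 6 detected members (blue, a symbol each) and the let-7a, let-7c and let-7e 5p arms (purple) under 5 scales without an offset and 2 offset scales (horizontal axis). The offset scales combine normexp background correction, an added offset and quantile normalization. Under every scale shown, miR-125b-5p is the lowest and the 5p members lie below the let-7 arms, while the position against 0 depends on the scale.

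The direction against 0 depended on the scale for most members. MiR-125a-3p was higher on the luteolin array under all 7 scales, from 0.42 to 2.13, and miR-125b-5p was lower under all 7, from -1.49 to -0.07, the last of which is within its error. MiR-99a-5p and miR-99b-5p, at -0.15 and -0.22 on the authors' scale, stood at 0.66 and 0.59 when the arrays were scaled on the Spike Control spots. There miR-125a-5p was 0.50 and miR-100-5p 1.09. Spike-in scaling moved every ratio up by 0.81, so the median of the 701 miRNAs was 0.81 and the order among members was the same.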

How the data were processed

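Per the labels, 250 ng of total RNA was labelled with Cy5 and hybridized to 1 array a condition. The arrays hold 3200 spots, of which 320 are blanks. The deposited intensity columns are, per the file headers, raw data, background subtraction and global normalization, with an adjusted column for luteolin. From the values, the authors subtracted the blank mean trimmed by 5% at each end. They listed a miRNA above it by more than 2 SD of those trimmed blanks, a rule that gave the listing of all 2565 miRNAs. Blank-subtracted values were multiplied by 3.03 (control) and 5.77 (luteolin). No source used here gives the basis of the further luteolin factor. The series' value table equals these columns. The deposited, already normalized scale is the main one. The offset scale used normexp with an offset of 50 and quantile normalization in limma 3.58.1 (R 4.3.3).

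Standard errors combine the SD of the trimmed blanks, 1.48 and 0.591 units, with the pooled coefficient of variation of 5 bright control probes, 7.34% and 6.23%. The trimmed SD leaves out the most extreme blanks. Differences between arms were taken for 14 pairs, with no test. The number of arrays limits the precision. Ratios and errors were computed on simulated spots drawn from the same error model. That check cannot tell whether the model holds for these arrays. Members, pairs and lists were chosen with earlier results of these data known. The named miRNAs are the members, the other arms of their clusters, the miR-10 family, entries sharing a member's seed, and the 3 nearest of each 5p member. Let-7g-5p, let-7i-5p and miR-98-5p were added afterwards. Calculations used Python 3.11.15, numpy 2.4.6, pandas 2.3.3 and matplotlib 3.10.9.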

Additional observations from a re-analysis of the deposited data

How the results depend on the processing

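The members' median log2 ratio, -0.19 on the authors' scale, was 0.13 without the further factor on the luteolin array, 0.62 with spike-in scaling, -0.80 with no scaling between arrays, -0.14 on the offset scale and -0.24 with an offset of 16. With the mean of the Negative Control 1 spots subtracted in place of the blanks, an alternative chosen after seeing the data, it was -0.00068. Over the members with the miR-99/100 seed alone it was -0.15. Over the members with the miR-125 seed alone, which are miR-125a-5p and miR-125b-5p without miR-4319, it was -0.60. The median over the 701 miRNAs detected on both arrays, 0 on the authors' scale, was 0.32, 0.81 and -0.61 under the 3 rescalings, and the median over the 310 under the stricter limit was 0.30 with Negative Control 1 subtracted. The count of members higher by 2-fold or more, 1 in the deposited values, was 2 with spike-in scaling, and 0 on the offset scale, with an offset of 16, with no scaling, and in each seed family alone. The count lower by that much, 0 in the deposited values, was 1 with no scaling and 0 under the other alternatives. The 14 differences between arms were the same under the 3 pure rescalings, by construction. On the offset scale 12 of them moved by more than their standard error, all towards 0, miR-99a-5p minus miR-99b-5p turned from 0.07 to -0.0045, and with Negative Control 1 subtracted 1 did, miR-100-5p minus let-7a-5p, to -0.54. The lowest value listed on the control array, 9.01, lies below the level of miR-10a-5p itself, so no bound was made from it. No paired analysis was possible because each condition has 1 array. Signals of the member 5p arms, 12.7 to 47.9 units above the blanks, limit their precision.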
